A study of Mus musculus with 24 samples.

Results

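The promoters described here carried an H3K27me3 call in Sertoli cells and in no other of the 4 gonadal cell populations profiled. A promoter was the window of 2 kb on either side of the annotated transcription start site (TSS), with 1 TSS per gene, for the 34653 genes of the GENCODE mouse annotation on chromosomes 1 to 19 of mm9. The members were chosen on the H3K27me3 peak lists themselves. A window had to overlap a Sertoli H3K27me3 region by at least 1 bp and no H3K27me3 region of the other 3 lists. By this rule 1115 promoters were taken, which is 3.22% of all promoters. H3K27me3 was called in Sertoli cells at 7000 promoters (20.2%), so 15.9% of these lay in the Sertoli list alone. They were then divided by whether H3K4me3 was called in XY progenitor and in Sertoli cells.

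ChIP-seq for H3, H3K4me3 and H3K27me3 was performed on FACS-sorted cells of mouse embryos on a C57BL/6 x CD1 background, with 2 replicates for each antibody and population. XY and XX gonadal progenitor cells were taken at E10.5 from *SF1-eGFP* gonads. Sertoli cells, the supporting cells of the testis, were taken from XY *Sox9-CFP* gonads at E13.5, and pregranulosa cells, the supporting cells of the ovary (granulosa cells in the labels), from XX *TESM-CFP* gonads at E13.5. No group carried a mutation beyond its reporter, and each replicate held sorted cells of pooled gonads, so a population is defined by its reporter, stage and sex. Both replicates of an antibody were joined by the authors into 1 peak list per mark and population. The lists give the positions of a mark and no level. No spread between replicates and no p-value between populations can therefore be computed, and the ranges in brackets after a percentage are 95% exact (Clopper-Pearson) intervals for counting error alone.

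H3K27me3 is placed on chromatin by Polycomb repressive complex 2 and is bound by CBX proteins of Polycomb repressive complex 1, which keep genes silent. H3K4me3 is placed by Trithorax-related complexes at the start sites of active or poised genes, and promoters with both marks are called bivalent. In mammals the Polycomb complexes are found mainly at CpG-rich promoters of developmental genes. In the fetal gonad, supporting cells of both sexes arise from a common progenitor and become either Sertoli or pregranulosa cells.

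The sequence upstream of 5 of these promoters is shown because CpG content was higher in the class with H3K4me3 in both XY progenitor and Sertoli cells. Among the other classes the quartile ranges of the CpG observed over expected ratio overlapped, so these examples do not stand for a graded order. *Heg1* and *Tcf7l1* carried H3K4me3 in both XY progenitor and Sertoli cells, *Lhcgr* carried it in the other 3 populations and not in Sertoli cells, and *Tnnt2* and *Il18* carried none. Each line gives the 200 bases before the TSS on the strand of the gene, 5′ to 3′, from the mm9 genome, with CpG dinucleotides in capitals. *Heg1* was read at chr16:33684352-33684551 (+), *Tcf7l1* at chr6:72739249-72739448 (-), *Lhcgr* at chr17:89191317-89191516 (-), *Tnnt2* at chr1:137737252-137737451 (+) and *Il18* at chr9:50383178-50383377 (+).
Heg1: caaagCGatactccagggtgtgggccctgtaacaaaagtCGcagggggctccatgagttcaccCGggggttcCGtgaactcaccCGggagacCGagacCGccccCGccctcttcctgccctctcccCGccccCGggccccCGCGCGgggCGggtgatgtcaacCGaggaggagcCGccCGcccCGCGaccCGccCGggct
Tcf7l1: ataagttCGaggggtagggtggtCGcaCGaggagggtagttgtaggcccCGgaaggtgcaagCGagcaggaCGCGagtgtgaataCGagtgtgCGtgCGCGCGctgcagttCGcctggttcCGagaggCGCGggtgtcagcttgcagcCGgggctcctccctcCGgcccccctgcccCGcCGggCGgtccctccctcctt
Lhcgr: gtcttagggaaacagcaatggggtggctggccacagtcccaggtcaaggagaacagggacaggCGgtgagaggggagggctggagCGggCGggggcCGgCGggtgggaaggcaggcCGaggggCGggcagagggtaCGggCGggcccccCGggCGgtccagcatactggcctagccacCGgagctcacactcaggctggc
Tnnt2: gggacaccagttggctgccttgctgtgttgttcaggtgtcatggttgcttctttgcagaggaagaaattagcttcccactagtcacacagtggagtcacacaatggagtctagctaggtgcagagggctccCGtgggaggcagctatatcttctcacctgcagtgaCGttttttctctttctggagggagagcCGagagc
Il18: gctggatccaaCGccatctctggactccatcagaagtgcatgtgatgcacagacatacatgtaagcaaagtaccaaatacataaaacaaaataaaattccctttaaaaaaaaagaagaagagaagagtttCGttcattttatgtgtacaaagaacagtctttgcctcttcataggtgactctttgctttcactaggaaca
These stretches held 21 CpGs in *Heg1* and 21 in *Tcf7l1*. There were 12 in *Lhcgr*, 3 in *Tnnt2* and 2 in *Il18*. The *Lhcgr* stretch was rich in CpG, while the wider window of 1001 bp around its TSS had a CpG observed over expected ratio of 0.376.

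The depth of the H3K27me3 lists differed. The Sertoli list was called from 44446456 tags, the XX progenitor list from 33185400 and the XY progenitor list from 6470151, and the depth of the pregranulosa list is unknown. A window of 5000 bp needed 1.42 times the expected number of tags in Sertoli cells, 1.61 times in XX progenitor cells and 2.74 times in XY progenitor cells. Depth and required excess thus moved with the population that the rule singled out, and their part in the number of promoters found was not tested. The markers of the sorted cells were largely as labelled. H3K4me3 without H3K27me3 was called in Sertoli cells at 13 of 15 Sertoli markers, *Sox9*, *Amh* and *Dmrt1* among them. The other 2 were *Hsd17b1*, with both marks, and *Cyp26b1*, with H3K27me3 alone. In the same cells 9 of 10 pregranulosa markers, *Foxl2*, *Wnt4* and *Rspo1* among them, carried both marks, and *Runx1* carried H3K27me3 alone. Of the 6 germ cell markers *Dazl* had H3K4me3 alone, *Dppa3* and *Pou5f1* both marks, *Nanog* H3K27me3 alone, and *Mael* and *Ddx4* none. None of 8 endothelial and blood markers had H3K4me3 alone, with both marks at *Kdr* and *Csf1r* and no mark at the other 6. Among 7 interstitial markers *Hsd3b1* and *Star* had H3K4me3 alone in the Sertoli list. Of that list *Pdgfra*, *Nr2f2* and *Insl3* had both marks, and *Cyp11a1* and *Cyp17a1* had none. The part of other cell types in the calls described here was not tested.

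The 1115 promoters lay on 968 Sertoli H3K27me3 regions, which is 7.39% of the 13105 Sertoli regions on these chromosomes. A single member lay on 837 of these regions, 118 held 2 members and 13 held 3 or more, so members are not independent of each other. The median width of the 968 regions was 7750 bp, with quartiles at 6258 and 12353 bp, against 8806 bp for all Sertoli regions. The mark covered the whole window of 4001 bp at 423 members (37.9%) and reached the TSS itself at 754 (67.6%). Among all promoters with Sertoli H3K27me3 the whole window was covered at 69.4%. The share was also 37.9% among pregranulosa-only promoters, and it was 17.6% among XY progenitor-only and 22.8% among XX progenitor-only promoters, so low coverage was shared by promoters marked in 1 population. The members include windows that a region only grazes. Just inside the limit, 2 bp were covered at *Gm20419* and *Zfp119b* and 3 bp at *Pctp*. Just outside it were *Mrpl28*, with 14 bp covered in the pregranulosa list, and *Gm3298*, with 40 bp covered in the XY progenitor list.

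Most members were marked by regions that met no H3K27me3 region of the other lists at any point. This held for 739 of the 968 regions (76.3%, 73.5–79.0), while 118 regions met all 3 other lists. The rule itself kept the other lists out of the window of 4001 bp, so part of this separation was set in advance. The nearest H3K27me3 region of the other lists lay a median of 19900 bp from the TSS, with quartiles at 7410 and 54018 bp. It was within 5 kb for 18.7% of members and over 50 kb away for 26.5%. Single-population regions were about as separate in pregranulosa cells, where 251 of the 331 regions at pregranulosa-only promoters (75.8%, 70.8–80.3) met none of the other lists. At 10 kb upstream of the TSS 30.0% of members were covered by Sertoli H3K27me3, and at 30 kb upstream 24.8%, against 11.1% and 9.92% of all promoters. The region that marked the promoter itself reached these points at 15.8% and 2.33% of members, and the rest was other Sertoli regions. In the other 3 populations the share at 30 kb upstream was 10.1% to 12.5%, as the plot of coverage by distance shows.

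**Figure D1:**
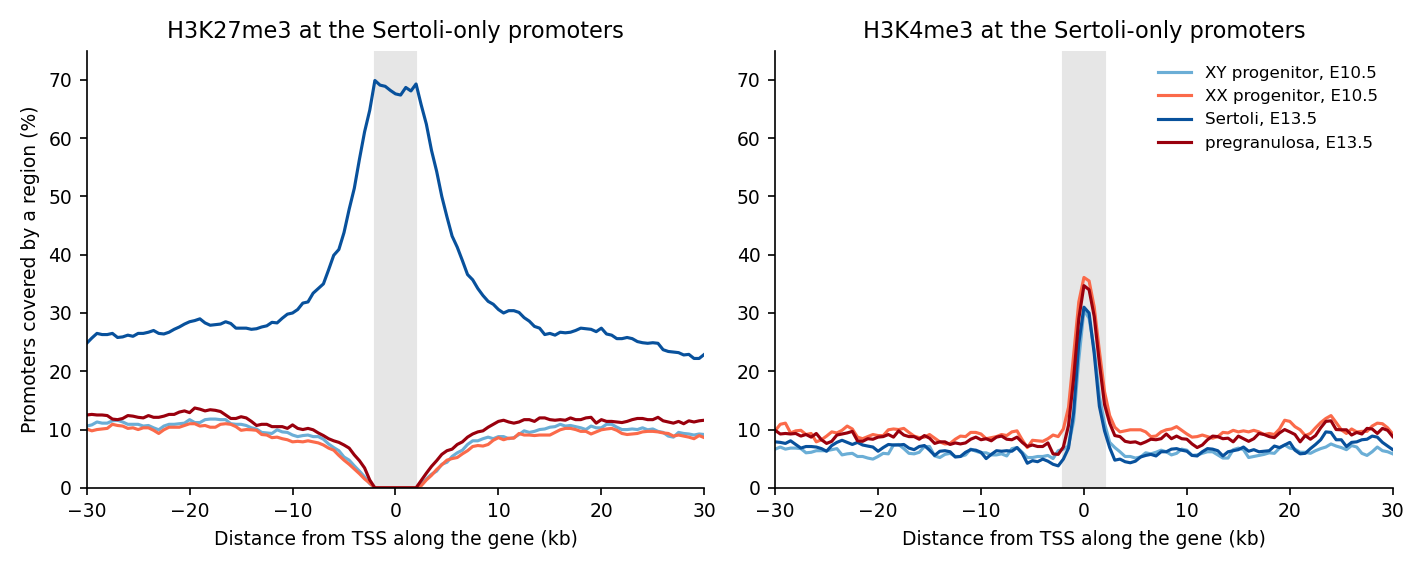
Share of the 1115 promoters (%) covered by an H3K27me3 region (left) or an H3K4me3 region (right) against distance from the TSS along the gene (kb), in the progenitor cells of both sexes (E10.5), Sertoli cells and pregranulosa cells (E13.5). The grey band is the promoter window, where the rule sets H3K27me3 to 0% in the other 3 populations. At the TSS, 67.6% were covered by Sertoli H3K27me3, and H3K4me3 covered 30.5% to 36.1% in the 4 populations.

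H3K4me3 was not used to choose the promoters, and it was called at fewer of them than of promoters in general. It was called at 39.3% (36.4–42.2) in XY progenitor cells, where 48.6% of all promoters carried it, and at 45.8% (42.9–48.8) in XX progenitor cells, where 50.8% did. In Sertoli cells it was called at 38.7% (35.9–41.7) of the members against 49.6% of all promoters, and in pregranulosa cells at 43.0% (40.1–46.0) against 51.1%. In each population the share among the members was below that of all promoters. Among promoters with H3K27me3 in no list, H3K4me3 was called at 39.7%, 40.8%, 41.1% and 41.8% in the same order. All but the share in XX progenitor cells lay inside the intervals of the members, whose share there was higher. Among promoters with H3K27me3 in all 4 lists it was called at 84.9% to 90.8%. All 4 populations carried H3K4me3 at 367 members (32.9%, 30.2–35.8), against 45.8% of all promoters, and none did at 519 (46.5%, 43.6–49.5), close to the 44.6% of all promoters.

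From XY progenitor to Sertoli cells, H3K4me3 was called at both stages at 373 members (33.5%, 30.7–36.3) and at neither at 618 (55.4%, 52.5–58.4). Over all promoters these shares were 46.2% and 47.9%, and over promoters with H3K27me3 in no list 37.8% and 57.0%. H3K4me3 was called in XY progenitor cells and not in Sertoli cells at 65 members (5.83%, 4.53–7.37), and the same was seen at 2.46% of all promoters. It was called in Sertoli cells and not in XY progenitor cells at 59 members (5.29%, 4.05–6.77), against 3.48% of all promoters. The members thus comprised bivalent Sertoli promoters and a larger number that carried H3K27me3 alone. Promoters with H3K27me3 in all 4 lists were mostly of the first kind, with H3K4me3 in both XY progenitor and Sertoli cells at 81.6%. Of the 391 promoters with H3K27me3 in pregranulosa cells only, 47.6% had H3K4me3 at both stages and 44.0% at neither. The type of gene bore on these shares. Over the 702 protein-coding members, 42.5% had H3K4me3 at both stages and 47.4% at neither, against 62.7% and 32.4% of all protein-coding promoters.

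**Figure D2:**
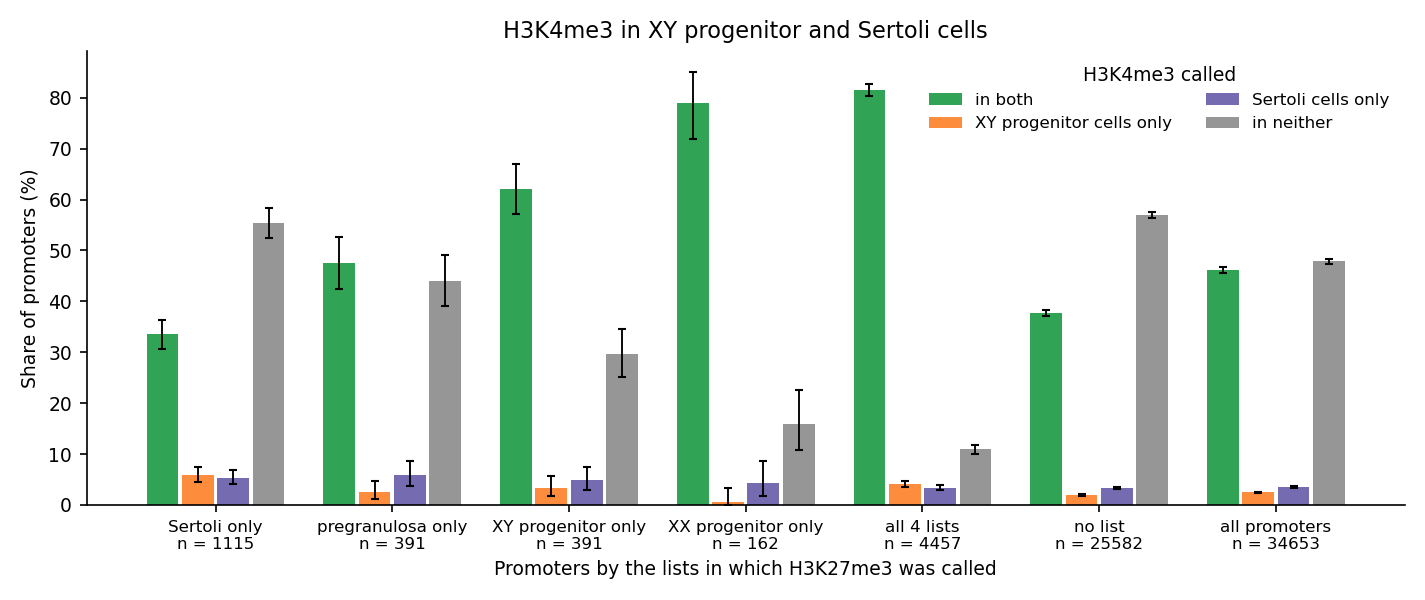
Share of promoters (%) by H3K4me3 calls in XY progenitor and Sertoli cells, for promoters grouped by the lists in which H3K27me3 was called. Bars are shares and error bars 95% exact intervals, which cover counting error only. Among the 1115 Sertoli-only promoters 33.5% had H3K4me3 in both and 55.4% in neither, against 47.6% and 44.0% of the pregranulosa-only promoters.

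Where H3K4me3 had been called in XY progenitor cells, the members were without it in Sertoli cells more often than other promoters. This was so at 65 of 438 members (14.8%, 11.6–18.5), at 5.06% (4.73–5.40) of all promoters that carried H3K4me3 in XY progenitor cells, at 4.83% (4.42–5.26) of those with H3K27me3 in no list and at 4.87% (4.21–5.60) of those with H3K27me3 in all 4 lists. Over protein-coding genes the share was 11.0% (7.90–14.9) of 335 members and 3.23% (2.95–3.54) of all. The intervals did not overlap in either case. At the 373 members that kept H3K4me3, it covered fewer bases in Sertoli than in XY progenitor cells at 160 (42.9%), compared with 28.7% of all promoters marked at both stages and 36.4% of those with H3K27me3 in all 4 lists. The median extent at these members was 1961 bp in XY progenitor cells, 2757 bp in XX progenitor cells, 2093 bp in Sertoli cells and 2549 bp in pregranulosa cells. The 2 progenitor lists differ in depth, with 10162534 H3K4me3 tags in XY and 49254553 in XX cells, and the Sertoli list had 31104760.

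At 22 members (1.97%) H3K4me3 was called in all 3 other populations and not in Sertoli cells, a pattern of 0.811% of all promoters. The peak size set for H3K4me3 was 1000 bp, so an extent of 1001 bp equals a single peak of that size. Most of the 22 had no more than this in the XY progenitor list, where 6 tags were enough for a call. The lists give no level, so the strength of these calls is unknown. H3K27me3 covered the whole window at 18 of the 22. *Sh2d4b*, with 2507 bp covered by Sertoli H3K27me3, lay 817419 bp from H3K27me3 of another list, the most of all members. *Lhcgr*, the receptor for luteinizing hormone, lay 382913 bp from it, the farthest of the named, wholly covered members of its class. H3K4me3 covered 1793 bp of its window in XY progenitor cells, 1563 bp in XX progenitor cells and 2061 bp in pregranulosa cells, and 0 bp in Sertoli cells, where H3K27me3 covered all 4001 bp. *Plac8*, a small cysteine-rich protein, had 1787, 1904 and 2060 bp of H3K4me3 in the same order and 0 bp in Sertoli cells. *Islr*, an immunoglobulin-domain protein of mesenchymal cells, had 1001, 2697 and 1001 bp and 0 bp in Sertoli cells, inside an H3K27me3 region of 15045 bp. *Ppyr1*, a receptor for pancreatic polypeptide, had 1001, 1264 and 1001 bp and again none in Sertoli cells. The gap junction protein *Gjb5*, the transporter *Abcc6*, the fatty acid receptor *Ffar1*, the ubiquitin ligase *Rnf112* and the calcium-binding protein *S100a16* were among the others. In sorted bulk cells, a mark in fewer cells and less of the mark per cell cannot be told apart.

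The 1 TSS per gene was the 5′ end of the annotated gene, which bears on genes with several start sites. *Ldha*, which encodes a lactate dehydrogenase subunit, belongs to the 22. At its 5′ end H3K4me3 covered 1001 bp in XY progenitor cells, 1746 bp in XX progenitor cells, 2243 bp in pregranulosa cells and 0 bp in Sertoli cells. Further TSSs of *Ldha* began 4364 bp downstream, and there H3K4me3 was called in Sertoli cells. The Sertoli H3K27me3 region of the 5′ end reached that TSS too, so both marks were called there. *Mest*, an imprinted gene, likewise had 1001, 2050 and 510 bp in XY progenitor, XX progenitor and pregranulosa cells and 0 bp in Sertoli cells at its 5′ end, with a TSS marked by Sertoli H3K4me3 8421 bp away. Its nearest TSS with Sertoli H3K4me3 and no Sertoli H3K27me3 lay 17235 bp away. The class with H3K4me3 in XY progenitor and not in Sertoli cells has 65 members. Of these only *Ldha* and *Mest* had Sertoli H3K4me3 at another TSS more than 2 kb away. Among the 618 members with H3K4me3 at neither stage, 31 had Sertoli H3K4me3 at such a TSS. Across all members, 257 (23.0%) had another annotated TSS more than 4 kb away. At 48 of them (4.30% of members) Sertoli cells carried H3K4me3 without H3K27me3 at such a TSS, and *Heg1* and *Tcf7l1* are 2 of these.

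The other members in this class with the mark over the whole window held H3K4me3 in fewer of the other populations. *Vtcn1*, an inhibitory ligand of T cells, had 1001 bp in XY progenitor cells and none elsewhere. The basal keratin gene *Krt5* had 463 bp in XY progenitor cells and none elsewhere, in an H3K27me3 region of 74538 bp. *Slc22a18*, an imprinted transporter, had 1001 bp in XY progenitor cells and none elsewhere, in a region of 91835 bp that met H3K27me3 of another list outside the promoter. *Igsf5*, a junction protein, had 595 bp in XY and 3412 bp in XX progenitor cells and none at E13.5. H3K4me3 was called in XY progenitor cells and in no other population at 25 of the 1115 members (2.24%, 1.46–3.29) and at 1.11% of all promoters.

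Among the members with H3K4me3 at both stages were 2 Wnt pathway genes. *Fzd2* encodes a Wnt receptor of the Frizzled family. H3K4me3 covered 3691, 4001, 3862 and 3855 bp of its window in XY progenitor, XX progenitor, Sertoli and pregranulosa cells, and Sertoli H3K27me3 covered 3080 bp, with 56046 bp to the nearest H3K27me3 of another list. *Tcf7l1* encodes a TCF factor that represses Wnt target genes. Its H3K4me3 covered 3035, 2938, 2991 and 3011 bp in the same order, and Sertoli H3K27me3 covered the whole window. At both genes H3K4me3 was nearly equal across populations while H3K27me3 was called in 1. They were the only members among 77 promoters of Wnt ligands, receptors, antagonists and effectors, of which 53 carried Sertoli H3K27me3, so the other 51 carried it in at least 1 other list. Members made up 3.22% of all promoters and 15.9% of all those with Sertoli H3K27me3. The shares 2 of 77 and 2 of 53 lay below these. None of the 19 ligands was a member, an interval that reaches 17.6%.

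Among the named members of this class, H3K27me3 of another list was distant from *Ctxn3* (330158 bp), *Pcbp3*, an RNA-binding protein (267144 bp), and the neighbouring ADP-ribosyltransferase genes *Art1* (163515 bp) and *Art5* (162413 bp), which share a region. *Clip2*, a microtubule linker, lay 150600 bp away, and *Timp2*, an inhibitor of metalloproteinases, 143681 bp away in a region of 50576 bp. At *Timp2* H3K4me3 covered 1800, 2475, 1928 and 2666 bp in XY progenitor, XX progenitor, Sertoli and pregranulosa cells. The Hox genes of the class were closer to H3K27me3 of the other lists. *Hoxd3*, in a Sertoli region of 130167 bp, lay 8362 bp from H3K27me3 of XY progenitor cells, 7495 bp from that of XX progenitor cells and 2303 bp from that of pregranulosa cells. *Hoxc4* and *Hoxc5*, on 1 Sertoli region of 43574 bp with *Mir615*, lay 18251 and 13130 bp from H3K27me3 of XY progenitor cells. At *Hoxc4* H3K4me3 covered 2741 bp in XY progenitor cells, 4001 bp in XX progenitor cells, 238 bp in pregranulosa cells and 3 bp in Sertoli cells, so the call in Sertoli cells rested on the edge of the window.

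Among the members with H3K4me3 in Sertoli and not in XY progenitor cells, the mark was often present in the XX lists. *Col6a2*, a chain of collagen VI, had 0 bp of H3K4me3 in XY progenitor cells, 2144 bp in XX progenitor cells, 1255 bp in Sertoli cells and 2670 bp in pregranulosa cells. *Tmem213* had 0, 1809, 1001 and 2195 bp in the same order, and *Fgd3*, an exchange factor for CDC42, had 0, 1257, 1374 and 1258 bp. At these genes the XY progenitor list, called from the fewest tags of the 3 H3K4me3 lists of known depth, was the exception. H3K4me3 was called in Sertoli cells alone at 14 members (1.26%, 0.688–2.10), near the 1.06% of all promoters. *Olfr71* and *R3hdml* each had 1001 bp in Sertoli cells and none elsewhere, and *Dao*, D-amino acid oxidase, had 56 bp there and none elsewhere.

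The largest class carried no H3K4me3 in XY progenitor or Sertoli cells. *Muc2*, the main intestinal mucin, lay 205057 bp from the nearest H3K27me3 of another list, *Spp2* 201406 bp, the T-cell adaptor *Sla2* 194881 bp and the cone channel subunit *Cnga3* 184774 bp. *Pcp4*, a calmodulin-binding peptide of neurons, lay 181641 bp away inside the *Igsf5* gene, and the cytokine gene *Il18* 121660 bp away. All 6 had 0 bp of H3K4me3 in every list and H3K27me3 over the whole window in Sertoli cells. The widest Sertoli regions of the class lay in the keratin cluster of chromosome 15, where 138078 bp held *Krt80* and *Krt81* and 90882 bp held *Krt75* and *Krt84*. H3K27me3 of other lists lay 2262 bp from the *Krt80* start and 2656 bp from that of *Krt75*, and both regions met H3K27me3 of other lists outside the promoters.

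CpG content differed between the classes. A promoter was called CpG-rich when the 1001 bp around its TSS had at least 55% GC and a CpG observed over expected ratio of at least 0.6. Of the members 162 (14.5%, 12.5–16.7) were CpG-rich, and all 162 belonged to the class with H3K4me3 at both stages, where they made up 43.4% (38.3–48.6). None of the 65, 59 and 618 members of the other classes was CpG-rich, which by the exact interval allows shares of up to 5.52%, 6.06% and 0.595%. The members were poorer in CpG than all promoters, of which 9353 of 34653 were CpG-rich (interval 26.5–27.5%), and than promoters with H3K27me3 in all 4 lists, at 46.4% (44.9–47.9). Pregranulosa-only promoters were CpG-rich at 26.9% (22.5–31.5) and XY progenitor-only promoters at 33.8% (29.1–38.7). CpG content and H3K4me3 moved together over the whole genome, where 9237 of these 9353 had H3K4me3 at both stages. Within the class marked at both stages the share was still lower in the members than in all promoters of that class, at 57.7% (57.0–58.5). Within the class marked at neither stage, the median GC content of the members was 50.3% and that of all promoters 44.3%. Their CpG ratio had a median of 0.216 against 0.181.

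**Figure D3:**
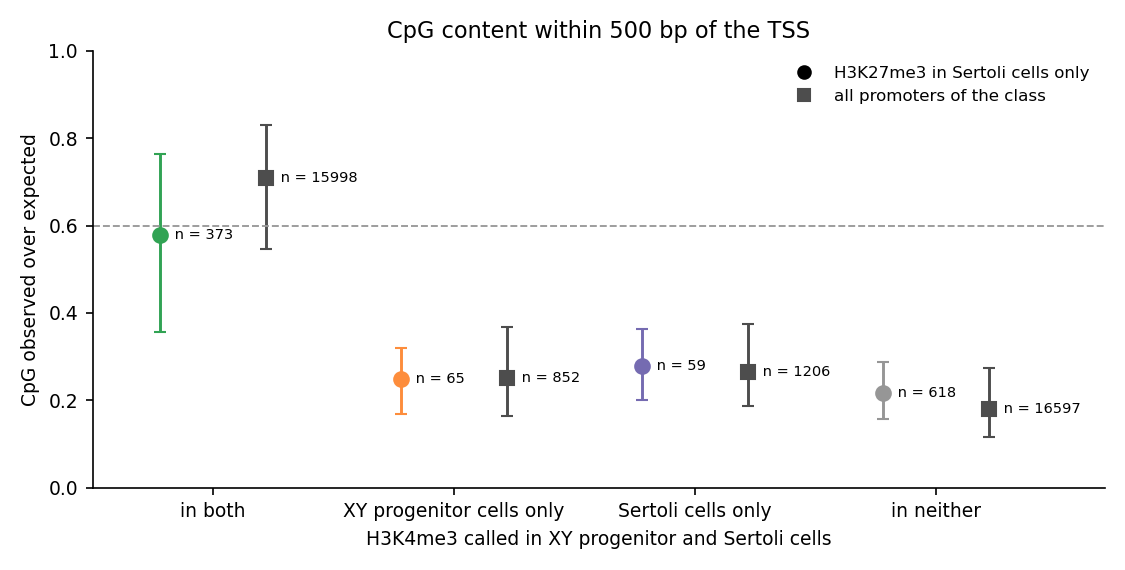
CpG observed over expected ratio within 500 bp of the TSS, by H3K4me3 calls in XY progenitor and Sertoli cells, for the Sertoli-only promoters (coloured circles) and for all promoters of the same class (grey squares). Symbols are medians and bars run from the lower to the upper quartile, with the limit for a CpG-rich promoter dashed. The members with H3K4me3 in both had a median of 0.579 and those with it in neither 0.216.

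Short sequence motifs were counted on both strands of the 300 bases from 250 before to 50 after the TSS. The motif GAGAGAG was found at 12.1% (10.2–14.2) of the members and 9.85% of all promoters, and at 14 of the 65 members that had H3K4me3 in XY progenitor and not in Sertoli cells (21.5%, 12.3–33.5). CCCTC was found at 70.3% (67.5–73.0) and 60.6%, and the GC content of the class with no H3K4me3 differed in the same direction. ACAATG and AACAAAG, letters bound by SOX factors, were found at 11.2% (9.42–13.2) and 5.92% (4.61–7.47) of the members and at 12.5% and 6.20% of all promoters. The GATA motif AGATAAG was found at 3.86% (2.80–5.16) and 3.21%, the SF1 motif CAAGGTCA at 2.06% (1.31–3.08) and 1.45%, and TATAAA at 12.6% (10.8–14.7) and 15.8%. TTCAAAG, of the TCF and LEF factors, was found at 5.20% (3.97–6.67) and 5.25%. For the SOX, GATA, SF1 and TCF letters the share of all promoters lay inside the interval of the members, and for TATAAA above it. A match is a description of the letters and not of binding.

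The members held more genes expressed specifically in pregranulosa cells than in Sertoli cells. The study lists both sets from microarray expression of sorted supporting cells, which is independent of these peak lists. Of the 1115 promoters of pregranulosa-specific genes (by coincidence as many as there are members), 57 were members (5.11%, 3.89–6.57). Of the 1351 promoters of Sertoli-specific genes 13 were (0.962%, 0.513–1.64), and of all promoters 3.22%. Nearly all genes of both sets carry H3K4me3, so the comparison was repeated among promoters with H3K4me3 in both XY progenitor and Sertoli cells. There 49 of 1013 pregranulosa-specific genes (4.84%, 3.60–6.34), 11 of 1229 Sertoli-specific genes (0.895%, 0.448–1.60) and 2.33% (2.10–2.58) of all were members. In XY progenitor cells H3K27me3 was called at 27.5% of the pregranulosa-specific and 26.7% of the Sertoli-specific promoters, and in Sertoli cells at 27.2% and 13.1%.

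The promoters with H3K27me3 in pregranulosa cells only showed the opposite order. They held 49 of the Sertoli-specific genes (3.63%, 2.70–4.77) and 9 of the pregranulosa-specific genes (0.807%, 0.370–1.53). The promoters marked only in XY progenitor cells held 20 Sertoli-specific (1.48%, 0.907–2.28) and 29 pregranulosa-specific genes (2.60%, 1.75–3.71). Those marked only in XX progenitor cells held 18 (1.33%, 0.791–2.10) and 17 (1.52%, 0.891–2.43). At E10.5 the intervals of the 2 sets overlapped, and at E13.5 they did not, in either cell type.

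**Figure D4:**
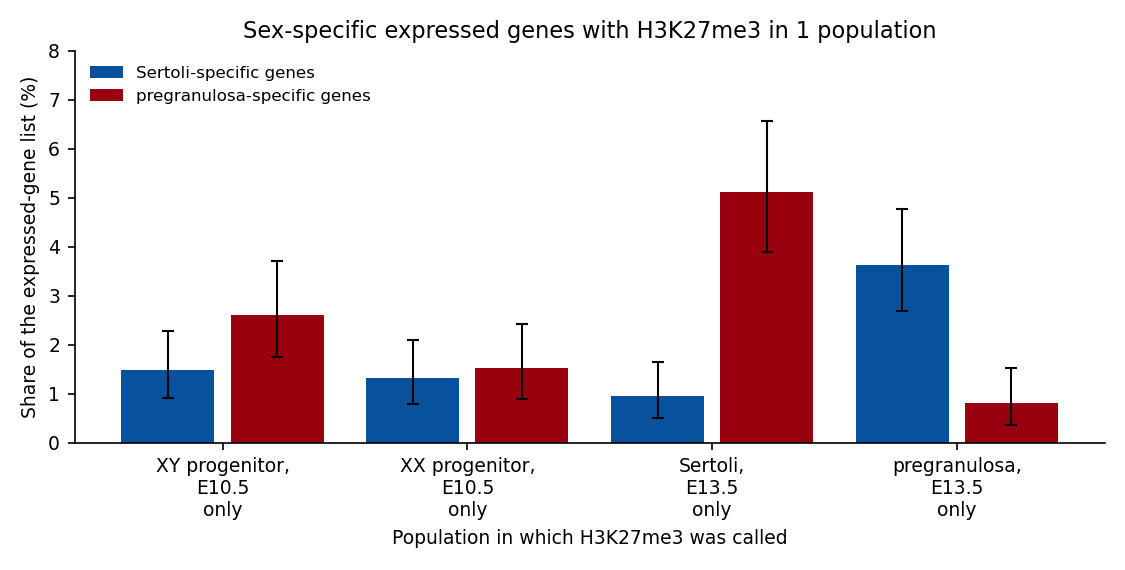
Share (%) of the Sertoli-specific (n = 1351) and pregranulosa-specific (n = 1115) expressed genes whose promoter had H3K27me3 in 1 population only, for each of the 4 populations. Error bars are 95% exact intervals, which cover counting error only. In Sertoli cells the shares were 0.962% and 5.11%, and in pregranulosa cells 3.63% and 0.807%.

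Of the 57 pregranulosa-specific members, 49 had H3K4me3 in both XY progenitor and Sertoli cells, 2 only in the former (*Lhcgr* and *Mest*), 1 only in the latter (*Col6a2*) and 5 in neither. *Heg1*, a transmembrane receptor of cell junctions, had H3K4me3 over 2390 bp in XY progenitor, 2830 bp in XX progenitor, 2410 bp in Sertoli and 2886 bp in pregranulosa cells. Sertoli H3K27me3 covered its whole window and the nearest H3K27me3 of another list lay 143041 bp away. *Igfbp4*, which binds insulin-like growth factors, had 3432, 3399, 3425 and 3382 bp of H3K4me3 in the same order. *Boc*, a Hedgehog co-receptor, had 3048, 3851, 2866 and 3667 bp. At these 3 genes the extent of H3K4me3 in Sertoli cells was close to that in XY progenitor cells, with H3K27me3 added over the whole window.

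Other pregranulosa-specific members are named here after their values were seen. At *Thbs2*, a matricellular protein, Sertoli H3K27me3 covered 2712 bp and H3K4me3 covered 1486, 1865, 1846 and 2573 bp in XY progenitor, XX progenitor, Sertoli and pregranulosa cells. At *Hmcn1*, a basement membrane protein, the nearest H3K27me3 of another list was 575517 bp away. *H19*, an imprinted long noncoding RNA, lay with *Mir675* and *Nctc1* on 1 Sertoli region of 32447 bp. H3K4me3 covered 3104, 3391 and 3413 bp of the *H19* window in XY progenitor, XX progenitor and pregranulosa cells and 1538 bp in Sertoli cells.

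Among the 13 Sertoli-specific members, 11 had H3K4me3 at both stages, and the mark often covered part of the window. *Rad18*, a ubiquitin ligase of DNA repair, had 2477 bp of Sertoli H3K27me3, the podocyte junction gene *Kirrel* 1658 bp and *Mxi1*, an antagonist of MYC, 1621 bp. H3K4me3 covered 1842 and 1948 bp at *Rad18*, 2868 and 3049 bp at *Kirrel* and 2298 and 2493 bp at *Mxi1* in XY progenitor and Sertoli cells. *Islr* was the 1 gene of this set without H3K4me3 in Sertoli cells that had it in XY progenitor cells.

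The classical sex-determination genes were not among the members. None of 19 ovary and pregranulosa genes and none of 20 Sertoli genes was, with intervals that reach 17.6% and 16.8%. Of the ovary genes 17 carried H3K27me3 in Sertoli cells, so they carried it in at least 1 other list too. Of 196 homeobox, forkhead, Sox, T-box and Gata promoters 165 carried Sertoli H3K27me3, and 5 were members, namely *Hoxc4*, *Hoxc5*, *Hoxd3*, *Foxn1* and *Tbx10*. Their share, 2.55% (0.833–5.85), has an interval that holds the 3.22% of all promoters. Among promoters with Sertoli H3K27me3, however, 15.9% of all were members, a larger share than these 5 of 165. No germ cell or neural gene of the lists was a member, and none of 101 neurotransmitter receptors was (interval up to 3.59%).

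The muscle, keratin and matrix lists held larger shares than the 3.22% of all promoters. Sertoli H3K27me3, in any combination of lists, was called at 12 muscle (80.0%), 35 keratin (23.6%) and 44 matrix promoters (52.4%). It was called at 20.2% of all promoters, and 15.9% of those were members. Of 15 muscle genes 5 were members (33.3%, 11.8–61.6): the smooth muscle actin *Acta2*, the cardiac myosins *Myh6* and *Myh7*, the cardiac troponin *Tnnt2* and the myogenic factor *Myog*. H3K27me3 covered the whole window at all 5. H3K4me3 was called in no population at *Myh6*, *Myh7*, *Myog* and *Tnnt2*, while *Acta2* had 1001, 1988, 1953 and 1821 bp in XY progenitor, XX progenitor, Sertoli and pregranulosa cells. The list is short and its interval wide. Of 148 keratin and skin barrier genes 12 were members (8.11%, 4.26–13.7), 8 of them type II keratin genes on chromosome 15, and several shared a region. Of 84 collagens, laminins and integrins 8 were members (9.52%, 4.20–17.9). *Itga5*, the fibronectin receptor chain, and *Col5a1* had H3K4me3 in all 4 populations, and *Itgam*, a leukocyte integrin, had it in none.

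Of 152 chemokines, interleukins and their receptors 53 carried Sertoli H3K27me3 (34.9%), and 12 were members (7.89%, 4.15–13.4). Of these 12 members 11 had H3K4me3 in neither XY progenitor nor Sertoli cells, among them *Ccr7*, a homing receptor of lymphocytes, *Cxcr5*, *Il1b* and *Il18*. *Il10* had 390 bp of H3K4me3 in XY progenitor cells and none elsewhere. *Csf1r*, the receptor that macrophages need, was a member from the endothelial and blood genes, with 2891 bp of H3K27me3 and 840 bp of H3K4me3 in Sertoli cells and no H3K4me3 in the other lists. The blood cell factor *Runx3* was the other member of that list, with no H3K4me3. The nearest H3K27me3 of another list lay 55808 bp from *Csf1r* and 4652 bp from *Runx3*.

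Fewer members came from large clusters of sensory receptors. Of 1106 olfactory receptor promoters 7 were members (0.633%, 0.255–1.30), and of 383 vomeronasal, taste and trace amine receptors none was (up to 0.959%). Sertoli H3K27me3, in any combination of lists, was called at 22 (1.99%) and 1 (0.261%) of these promoters, against 20.2% of all promoters. Of 389 zinc finger genes 5 were members (1.29%, 0.419–2.97). Channels contributed 7 of 137, solute carriers 15 of 358, proteases and their inhibitors 8 of 216, cytochrome P450 and UDP-glucuronosyltransferase genes 3 of 117, lectin and killer cell receptors 4 of 137, and claudins and cadherins 2 of 83. For these 6 lists the share of all promoters, 3.22%, lay within the exact interval. From the early gonad list *Msln*, a surface protein of mesothelium, was the 1 member of 18, and from the interstitial list *Lhcgr* was the 1 of 19.

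**Figure D5:**
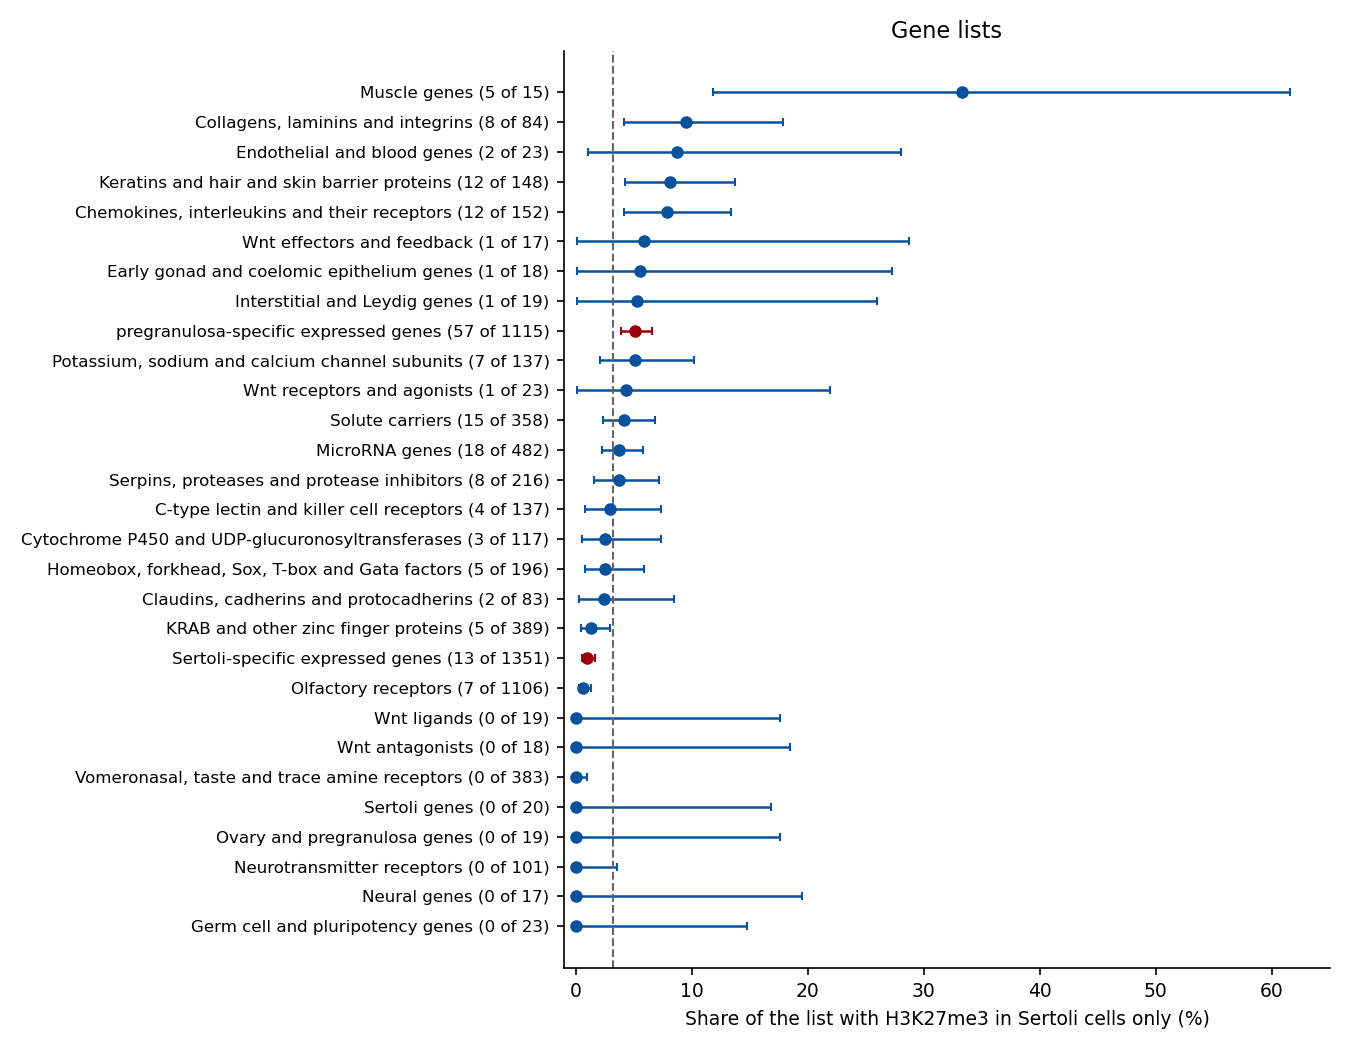
Share (%) of each gene list whose promoter had H3K27me3 in Sertoli cells only, with 95% exact intervals that cover counting error only and the number of members and promoters in brackets. The dashed line is the share of all promoters, 3.22%. Muscle genes (33.3%), collagens, laminins and integrins (9.52%), keratins (8.11%), chemokines (7.89%) and the pregranulosa-specific genes (5.11%) lay above it with their whole interval. Olfactory receptors (0.633%), vomeronasal, taste and trace amine receptors (0%), zinc finger genes (1.29%) and Sertoli-specific genes (0.962%) lay below it with their whole interval.

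Of 482 microRNA genes taken by symbol 18 were members (3.73%, 2.23–5.84), an interval that holds the 3.22% of all promoters. Of all 1468 genes annotated as microRNAs 52 were members (3.54%). *Mir200a* and *Mir200b*, of an epithelial microRNA family, lay on 1 region with *Ttll10*, with no H3K4me3 in any list. *Mir208b* lies within *Myh7* and *Mir208a* within *Myh6*, both muscle microRNAs. *Mir208a* had 1630, 1255 and 1516 bp of H3K4me3 in XX progenitor, Sertoli and pregranulosa cells and none in XY progenitor cells. *Mir34a* had 971 bp in XY progenitor cells and none elsewhere.

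By type of gene, 702 members were protein-coding (3.28% of such genes), 152 were processed transcripts (6.24%), 85 pseudogenes (2.10%) and 43 lincRNAs (3.49%). The TSS lay inside another protein-coding gene at 19.0% (16.7–21.4) of the members and 21.3% of all promoters. By chromosome the share ran from 2.09% on chromosome 3 to 5.18% on chromosome 15 and 5.15% on chromosome 11. H3K27me3 covered the whole gene at 286 members (25.7%). This share was not computed for all promoters, and it depends on the length of the genes, whose part was not tested.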

How the data were processed

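H3, H3K4me3 and H3K27me3 were measured by ChIP-seq in 24 samples, 2 replicates for each antibody in each of 4 populations. The authors trimmed reads, aligned them to mm9 and called peaks over H3 with HOMER (Trim Galore, Bowtie and SAMtools are also named in the submitters' processing notes, without versions). The 8 deposited files are lists of peak positions, 1 per mark and population, with both replicates pooled. Their score column, as the authors deposited it, holds 1 constant value and was not used, so the unit is base positions with no level of enrichment. Peaks required 4 times the H3 signal. H3K4me3 and H3K27me3 depth was read from the headers of 6 lists, and 2 lists, those of pregranulosa cells, have no header.

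Overlapping peaks of a list were joined into regions. The 34653 genes of GENCODE release M1 on chromosomes 1 to 19 gave the windows of TSS ± 2 kb, and at least 1 bp of overlap marked a window. Covered bases, H3K4me3 classes, distances, CpG content and motifs were computed on NCBIM37 (mm9). The members and all lists were chosen with earlier results of these data known. Genes were named by rule: in each H3K4me3 class, the protein-coding members wholly covered in Sertoli cells that lay farthest from H3K27me3 of another list or on the widest regions, and members of short gene lists or of the expressed-gene lists. Genes outside that rule were named after their values were seen. Sertoli- and pregranulosa-specific genes came from the study's supplementary lists, of which only the symbols were used. No test was made, because each condition has 1 pooled list. Interval code was tested on simulated data. Alternatives changed the overlap, window, regions, genes or lists required. Python 3.11.15, NumPy 2.4.6, SciPy 1.17.1 and matplotlib 3.10.9 were used.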

Additional observations from a re-analysis of the deposited data

How the results depend on the processing

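No paired analysis was possible because both replicates were pooled in every list and no test was run. The same pooling means that replicates could not be left out, and the lists give no spread between them. The number of promoters stayed within 1.5 times 1115 in 9 of 13 alternatives, and was 806 when every list of a mark was reduced to as many regions as the shortest. It was 423 with the whole window covered in Sertoli cells, 702 for protein-coding genes, 1989 when absence was required in XY progenitor cells alone and 1719 when the pregranulosa list was not used. The share with H3K4me3 in both XY progenitor and Sertoli cells was 30.3% with TSS ± 1 kb, 29.3% with the whole window covered, 42.5% for protein-coding genes, 30.2% for windows that overlap no other, 40.9% with absence in XY progenitor cells alone, 37.3% without the pregranulosa list and 36.4% without the XX progenitor list. The share with H3K4me3 in neither was 59.1% with at least 500 bp of overlap, 60.7% with TSS ± 1 kb, 59.2% with the widest 75% of regions, 47.4% for protein-coding genes, 58.8% for windows that overlap no other, 48.5% with absence in XY progenitor cells alone and 51.5% without the pregranulosa list. H3K4me3 in Sertoli and not in XY progenitor cells was at 3.75% with TSS ± 1 kb and 3.19% with the widest 75% of regions, and the reverse at 8.98% with the whole window covered. CpG-rich members made up 9.93% with the whole window covered, 21.2% for protein-coding genes, 18.6% with absence in XY progenitor cells alone and 16.8% without the pregranulosa list. Among members with H3K4me3 in XY progenitor cells, those without it in Sertoli cells made up 23.5% with the whole window covered and 11.0% for protein-coding genes. The shares of the Sertoli- and pregranulosa-specific genes that were members were 0.148% and 2.60% with the whole window covered, 2.52% and 8.61% with absence in XY progenitor cells alone, and 2.22% and 7.17% without the pregranulosa list. With as many regions as the shortest list they were 0.518% and 3.32%. The pregranulosa-specific share was the higher in each of these settings. Protein-coding genes made up 71.1% of members whose TSS lay inside no other protein-coding gene, which with 1 promoter per Sertoli region was an alternative chosen after the data were seen. The cause of these shifts was not tested, except that the alternatives on genes, coverage and lists change by construction which promoters are counted.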

Other observations

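The rule covered chromosomes 1 to 19. Of 2599 promoters on chromosome X, 0 had H3K27me3 in Sertoli cells only, which by the exact 95% interval allows a share of up to 0.142%. H3K27me3 was called at 133 of them in Sertoli cells and 138 in XY progenitor cells, and at 1421 in XX progenitor and 1151 in pregranulosa cells. The rule leaves out every window marked in either XX list, so part of this count of 0 was set in advance. The interval covers counting error only.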
